A study of Rattus norvegicus with 8 samples.

Results

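The genes described here are the output factors of the circadian clock: the PAR bZIP activators Dbp, Tef and Hlf, the bZIP repressor Nfil3, the bHLH repressors Bhlhe40 and Bhlhe41, the clock repressor Ciart and the cell cycle kinase Wee1. They were found through the RefSeq accession of each probe, which matched 5 of the 8 genes by 7 of the array's 41012 gene probes. Dbp, Tef, Nfil3 and Bhlhe40 had 1 probe each and Wee1 had 3. Hlf, Bhlhe41 and Ciart were not matched to a probe and were not analysed here. Only accessions were searched, and 22299 of the gene probes were left without a symbol. Further probes of the 8 genes may be among those. All 7 probes were well above background on all 8 arrays, so that every value given for these 5 genes is a measured one.

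The tissue was the right kidney, taken from male rats of the inbred strain F344/NSlc at an age of 10 weeks. In 4 nephrectomized rats it was the kidney left after the other had been removed, and 4 sham-operated rats served as controls. Per the series text all kidneys were sampled 2 days after the operation, while the source label gives day 2 for nephrectomized and day 1 for sham rats. The labels give no time of day for the sampling, which is of weight for genes whose mRNA cycles over the day. Operation, sampling day and any difference in sampling hour therefore cannot be told apart in the comparisons below.

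In the clock, the activators Bmal1 and Clock bind E-boxes and switch on their own repressors, the Per and Cry genes, together with output genes such as Dbp and Tef. The PAR bZIP proteins that these encode, named for a domain rich in proline and acidic residues, bind D-boxes and activate genes there, among them genes of drug and haem metabolism. Nfil3, also called E4BP4, is a bZIP protein that represses through the same D-boxes, and Bhlhe40, also called Dec1, competes with the activators at E-boxes. Wee1 inhibits Cdk1 and so delays mitosis, and in mouse liver its transcription is under clock control through E-boxes.

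The start-site windows of the 4 measured factors with an entry are shown because the E-box is the element through which the core loop reaches its output genes. Each runs from 250 bases before to 50 bases after the start, is on the + strand of GRCr8 and comes from RefSeq. Capitals mark an E-box, searched as CACGTG, which reads the same on both strands.
Tef, chr7:115206577-115206876: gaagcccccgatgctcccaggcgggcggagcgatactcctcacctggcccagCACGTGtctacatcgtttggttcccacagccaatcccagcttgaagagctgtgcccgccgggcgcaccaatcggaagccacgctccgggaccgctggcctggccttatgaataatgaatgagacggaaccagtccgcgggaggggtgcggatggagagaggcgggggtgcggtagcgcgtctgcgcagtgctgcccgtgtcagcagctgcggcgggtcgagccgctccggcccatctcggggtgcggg
Dbp, chr1:105312006-105312305: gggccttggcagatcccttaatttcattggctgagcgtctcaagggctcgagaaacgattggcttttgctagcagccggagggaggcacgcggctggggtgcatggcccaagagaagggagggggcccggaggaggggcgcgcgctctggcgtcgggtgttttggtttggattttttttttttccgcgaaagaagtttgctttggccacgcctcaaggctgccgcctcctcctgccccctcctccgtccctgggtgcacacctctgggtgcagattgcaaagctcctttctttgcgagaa
Nfil3, chr17:12432126-12432425: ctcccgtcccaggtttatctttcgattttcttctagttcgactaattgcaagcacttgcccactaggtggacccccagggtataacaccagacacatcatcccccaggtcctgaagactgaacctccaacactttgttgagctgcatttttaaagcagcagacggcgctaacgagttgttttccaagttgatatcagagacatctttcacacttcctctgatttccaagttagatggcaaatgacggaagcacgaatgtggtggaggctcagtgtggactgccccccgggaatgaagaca
Bhlhe40, chr4:143174200-143174499: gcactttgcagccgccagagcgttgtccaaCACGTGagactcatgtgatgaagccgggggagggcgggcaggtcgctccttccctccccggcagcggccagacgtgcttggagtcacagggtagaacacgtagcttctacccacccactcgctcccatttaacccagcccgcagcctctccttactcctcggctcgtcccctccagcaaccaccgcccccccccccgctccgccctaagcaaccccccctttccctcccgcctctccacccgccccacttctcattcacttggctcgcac

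The window of Tef held 1 E-box, 198 bases before the start, and that of Bhlhe40 held 1, 220 bases before it. The windows of Dbp and Nfil3 held no match to these letters. Of the 6 listed factors with a window, 4 had an E-box: Tef, Bhlhe40, Bhlhe41 and Ciart, the last with 3. Over all 33469 windows of 300 bases the share was 6.42%. GC content was 67.7% in the window of Tef, 65.7% in Bhlhe40, 72.7% in Bhlhe41 and 60.3% in Ciart. In Dbp and Nfil3 it was 59.7% and 48.7%. The median over all windows was 51.7%, and the share of 6.42% was not matched for GC content. D-boxes, searched as TTATGTAA and TTACGTAA on both strands, stood in 1.01% of all windows and in 0 of these 6. The letters TAGGTCA of the ROR element, searched on both strands, stood in 2.63% of all windows and in 0 of these 6. A match is a description of the window, and its absence says only that the letters are not within it.

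Arrays were compared after each was scaled to its own signal, and a level below is given in log2 units above or below the 75th percentile of that array. A difference of 1 is a factor of 2 in intensity. In tissue RNA, a lower value from fewer cells of a type and one from less mRNA per cell cannot be told apart. Between 54.8% and 65.5% of the gene probes were well above background on an array, and none was saturated. The lowest share, 54.8%, was that of sham rat 1. The arrays lay on 2 slides with 2 nephrectomized and 2 sham rats each, and sham rat 1 stood apart from the other 7 on the second principal component, which held 21.6% of the variance. Kidney markers were present in both groups, with all 6 proximal tubule, 4 loop and distal tubule, 5 collecting duct and 4 podocyte genes measured and none called. None was called among the measured markers of endothelium (4 of 4 listed), leukocytes (3 of 6), fibroblasts and mesangium (3 of 3) and adipocytes (2 of 4). A probe was matched for 4 of 5 adrenal cortex and all 3 skeletal muscle markers, and none of these was bright enough to be tested. The summed leukocyte marker level, on the linear scale relative to the array's 75th percentile, was 3.58 to 4.35 in nephrectomized and 3.17 to 4.04 in sham rats. The same sum for the adipocyte markers was 0.819 to 1.28 in nephrectomized and 0.990 to 1.29 in sham rats. The measured ones, Adipoq and Cidec, had log2 fold changes of -0.11 and -0.78 (adjusted p = 0.692 and 0.334 by limma), the same sign as Tef and Dbp, and their part in the values of those genes was not tested. Lep was well above background on no array. Cyp11b1 and Cyp11b2 of the adrenal cortex and all 3 muscle markers were well above background on no array.

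After nephrectomy the mRNA of Tef was lower, at 65.3% of the sham level, and that of Dbp stood at 73.7% without passing the test over all genes. Nfil3, which represses through the sites that Tef and Dbp activate, stood at 124% and did not pass. Bhlhe40 and Wee1 stood at 97.1% and 100.4%. With an adjusted p of 0.05 as the threshold (limma, Benjamini-Hochberg adjustment over 19865 genes), 1 of the 5 factors was called, against 3.59% of all genes. That factor, Tef, was lower, as were 1.02% of all genes. None was called higher, against 2.57% of all genes. At an unadjusted p under 0.05 by limma, 1 of the 5 was higher and 2 were lower. Over all 19865 genes, 3508 were under it in either direction. The values of nephrectomized and sham rats did not overlap for 2 of the 5 factors, Tef and Dbp, against 12.6% of all genes.

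**Figure D1:**
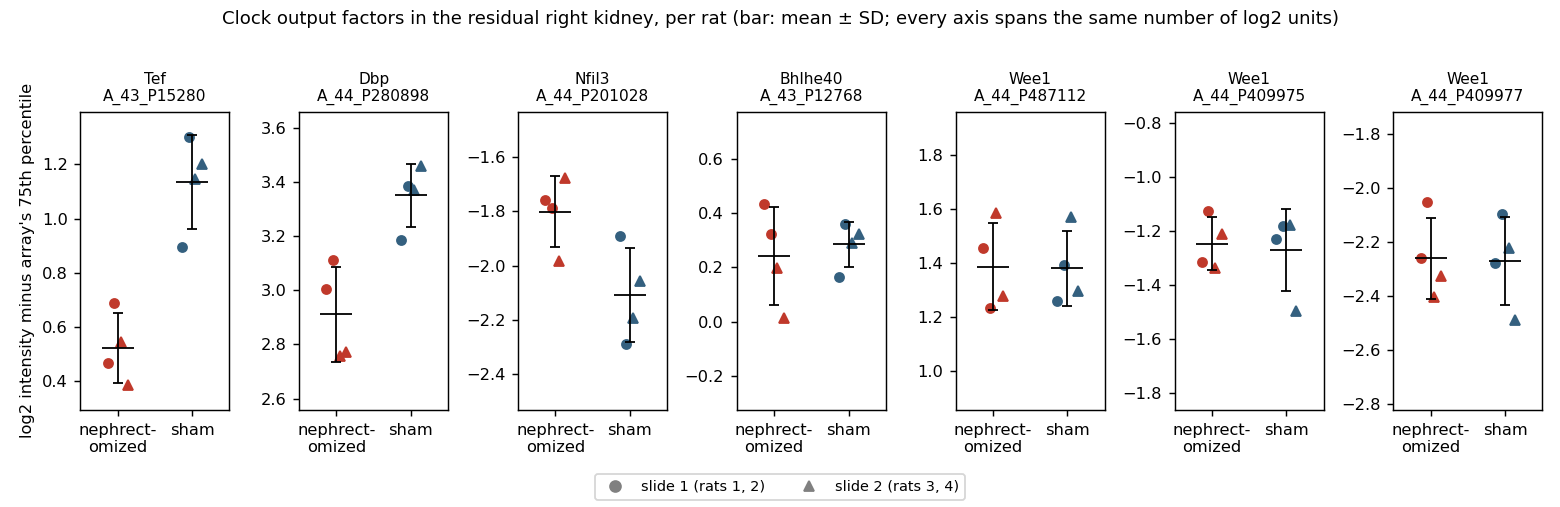
Level in log2 units relative to the 75th percentile of the array, for each of the 7 probes, 1 point per rat (n = 4 per group, circles for slide 1 and triangles for slide 2), with the mean and SD as black bars and axes of equal span. Tef and Dbp have no overlap between nephrectomized and sham rats, whereas the points of Nfil3, Bhlhe40 and the 3 Wee1 probes do overlap.

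Tef, the thyrotroph embryonic factor, showed the largest difference among the 5. Its level was 0.47, 0.69, 0.54 and 0.38 in nephrectomized rats 1 to 4, against 0.89, 1.30, 1.15 and 1.20 in sham rats 1 to 4. Every nephrectomized rat lay below every sham rat, with the nearest pair nephrectomized rat 2 and sham rat 1. The means were 0.52 ± 0.13 in nephrectomized and 1.14 ± 0.17 in sham rats (SD, n = 4 each). Its log2 fold change was -0.62 (SE 0.10, 95% interval -0.85 to -0.38, limma adjusted p = 0.0159). Of all genes tested, 1.42% had a lower log2 fold change. The difference was -0.52 on slide 1 and -0.71 on slide 2, and as a fit within a single slide, with 2 rats per group, neither passed (adjusted p = 0.571 and 0.103). The call was lost without sham rat 3 (adjusted p = 0.0561), sham rat 4 (0.0521) or nephrectomized rat 4 (0.0578), with log2 fold changes from -0.70 to -0.56 over the 8 ways of leaving out 1 rat. With dim probes kept in the fit it was lost too (adjusted p = 0.0726).

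Dbp, the albumin D-box binding protein, gave values of 3.00, 3.11, 2.76 and 2.77 in nephrectomized rats 1 to 4, against 3.19, 3.38, 3.37 and 3.46 in sham rats 1 to 4. The groups did not overlap, and the gap between nephrectomized rat 2 and sham rat 1 was narrow beside the spread within either group. The mean was 2.91 ± 0.18 in nephrectomized and 3.35 ± 0.12 in sham rats (SD, n = 4 each). The log2 fold change of -0.44 (SE 0.10, 95% interval -0.67 to -0.21) missed the threshold over all genes (adjusted p = 0.0545 by limma). It passed with normexp background correction (adjusted p = 0.0287), with an intensity trend and robust estimation (0.0278), with array weights (0.0138), without sham rat 1 (0.0499) and without nephrectomized rat 2 (0.046). The difference was -0.23 on slide 1 and -0.65 on slide 2, and whether the slides differed was not tested.

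In both PAR bZIP genes nephrectomized rat 2 had the highest value of its group and sham rat 1 the lowest of its own. Without sham rat 1, the log2 fold change was -0.70 for Tef and -0.49 for Dbp.

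Nfil3 had the opposite sign. Its level was -1.76, -1.79, -1.98 and -1.68 in nephrectomized rats 1 to 4, against -1.89, -2.29, -2.19 and -2.06 in sham rats 1 to 4. The groups overlapped, since nephrectomized rat 3 lay below sham rat 1. The log2 fold change was 0.31 (SE 0.10, 95% interval 0.07 to 0.54, unadjusted p = 0.0162 and adjusted p = 0.16 by limma), and 7.3% of all genes had a higher one. It was 0.32 on slide 1 and 0.30 on slide 2. With array weights, which give less influence to arrays that fit the model less well, Nfil3 passed (log2 fold change 0.41, adjusted p = 0.0154). Normexp reduced the log2 fold change to 0.19.

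Bhlhe40, the E-box repressor, gave 0.43, 0.32, 0.20 and 0.01 in nephrectomized rats 1 to 4, against 0.16, 0.36, 0.29 and 0.32 in sham rats 1 to 4. The sham values lay within the range of the nephrectomized ones. The log2 fold change was -0.04 (SE 0.10, adjusted p = 0.87 by limma), with a 95% interval of -0.26 to 0.18, or 83.3% to 113% of the sham level. The sign was not settled: it was 0.12 on slide 1 and -0.20 on slide 2. The SD was 0.18 in nephrectomized and 0.08 in sham rats (n = 4 each).

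Wee1, the mitotic inhibitor, did not differ beyond the spread between rats on any of its 3 probes. On the brightest, A_44_P487112, the values were 1.45, 1.23, 1.58 and 1.28 in nephrectomized rats 1 to 4, against 1.26, 1.39, 1.57 and 1.30 in sham rats 1 to 4. Both groups covered nearly the same range. The log2 fold change was 0.01 (SE 0.10, adjusted p = 0.984 by limma), with a 95% interval of -0.23 to 0.24, or 85.5% to 118% of the sham level. The other probes, A_44_P409975 and A_44_P409977, gave 0.02 (SE 0.09) and 0.01 (SE 0.10). The 3 probes share the accession NM_001012742 and the same arrays, so they are repeated readings of 1 mRNA and not replicates.

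**Figure D2:**
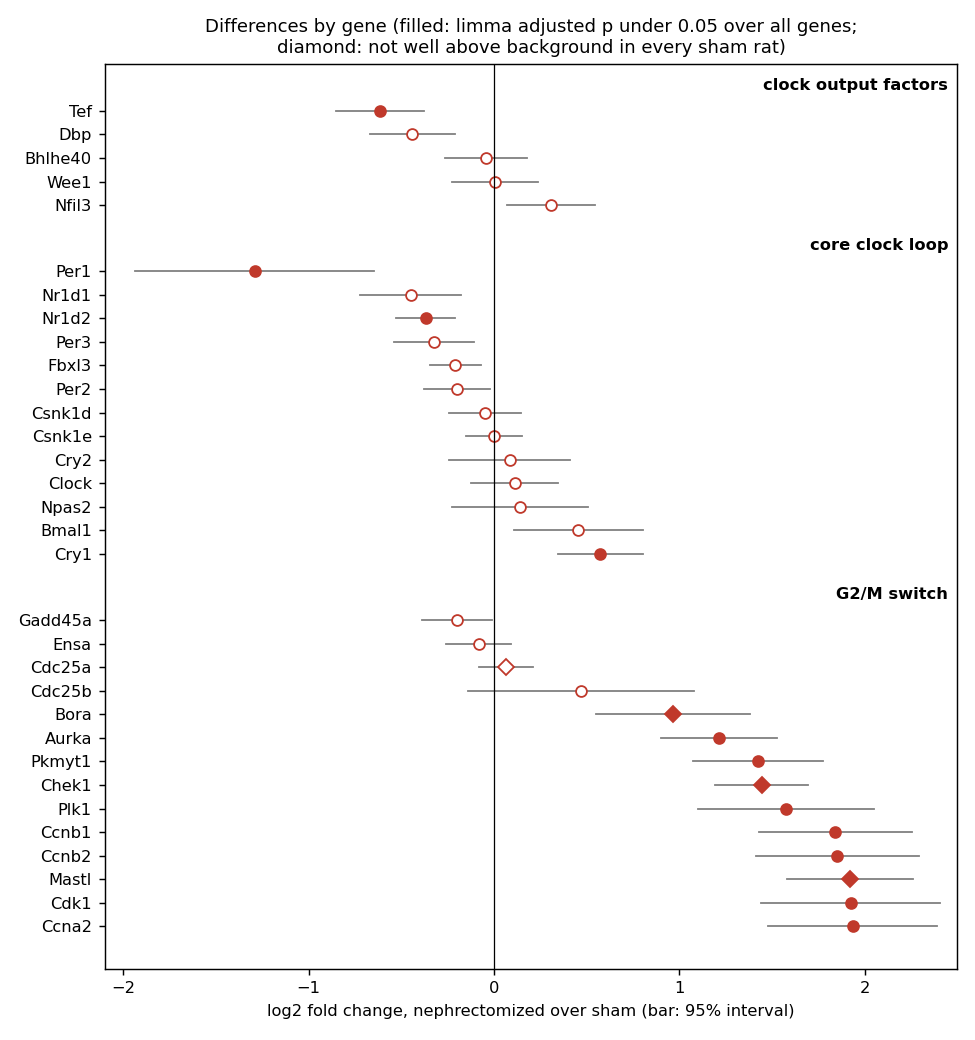
Log2 fold change of nephrectomized over sham rats with its 95% interval (n = 4 rats per group) for the 5 clock output factors, 13 core clock loop genes and 14 genes of the G2/M switch, filled where the limma adjusted p over all genes was under 0.05. Among the output factors Tef alone is filled, and the interval of Wee1 lies around 0. In the G2/M switch 7 circles are filled to the right and 3, Gadd45a, Cdc25b and Ensa, are open, while the 4 diamonds mark genes that were not well above background in every sham rat.

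Wee1 can be set beside the other genes that govern entry into mitosis, where it acts against Cdc25 phosphatases on the kinase Cdk1. Of 14 measured genes of that switch, 10 were well above background on all 8 arrays. Of these 10, 7 were called higher after nephrectomy and 0 were called lower (1 lower at an unadjusted p under 0.05 by limma). Among all genes well above background on all 8 arrays, 2.18% were called higher. The median log2 fold change of the 10 was 1.499, against -0.00796 over all genes well above background on all 8 arrays. Ccnb1, the cyclin that activates Cdk1, rose to 3.58-fold the sham level (adjusted p = 0.00162 by limma). The 3 not called were Gadd45a, a stress-induced inhibitor, Cdc25b, one of the Cdc25 phosphatases, and Ensa, an inhibitor of the phosphatase that opposes Cdk1, with log2 fold changes of -0.20, 0.47 and -0.08 (adjusted p = 0.262, 0.415 and 0.628 by limma). The other 4 genes, Chek1, Mastl, Bora and Cdc25a, were well above background in all nephrectomized rats but in 3, 3, 2 and 3 of the 4 sham rats. They entered the fit only through the nephrectomized group, and their log2 fold changes of 1.44, 1.92, 0.97 and 0.06 are given as a description. Chek1 is a checkpoint kinase, and Mastl holds off the phosphatase that opposes Cdk1. Pkmyt1, the other kinase that inhibits Cdk1, lay at 0.01, -0.05, 0.18 and 0.26 in nephrectomized rats 1 to 4, against -0.86, -1.48, -1.54 and -1.42 in sham rats 1 to 4. It rose with a log2 fold change of 1.42 (SE 0.15, limma adjusted p = 0.00226), with no overlap between the groups, whereas the 95% interval of the Wee1 difference ended at 0.24. Pkmyt1, Gadd45a, Cdc25a, Cdc25b, Ensa and Bora were named after their values were seen. The difference between the changes of Pkmyt1 and Wee1 was not tested.

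The core clock loop, which drives the output factors, gave values for 13 of its 17 listed genes. Of these, 1 was called higher and 2 were called lower after nephrectomy, against 2.57% and 1.02% of all genes. The median log2 fold change of the 13 was -0.05. The number called was 0 without sham rat 2, sham rat 3 or nephrectomized rat 4, and 1 without sham rat 4, nephrectomized rat 1 or nephrectomized rat 3. Per1, a repressor of the loop that glucocorticoids also induce, fell by 1.29 on the log2 scale, to -1.92, -2.14, -2.76 and -2.15 in nephrectomized rats 1 to 4, against -0.38, -0.89, -0.82 and -1.71 in sham rats 1 to 4 (adjusted p = 0.0465 by limma). Sham rat 4 came close to the nephrectomized values of Per1, while for Tef and Dbp it was among the higher sham rats. The other called genes were Cry1, a repressor partner of the Per proteins, at 1.49-fold, and Nr1d2, a repressor of Bmal1, at 0.775-fold of the sham level (adjusted p = 0.0188 and 0.0275 by limma). The other probe of Nr1d2 read -0.44 in log2 fold change, which missed the threshold over all probes (adjusted p = 0.0978).

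Other genes of the loop did not pass. Nr1d1, a repressor of Bmal1 and a classical E-box gene, gave -0.09, 0.20, 0.13 and -0.05 in nephrectomized rats 1 to 4, against 0.34, 0.41, 0.42 and 0.82 in sham rats 1 to 4. The groups did not overlap, and its log2 fold change was -0.45 (adjusted p = 0.0881 by limma). Per3 and Per2 had log2 fold changes of -0.32 and -0.20 and did not pass (adjusted p = 0.116 and 0.234). Bmal1 gave 0.18, -0.00481, 0.67 and 0.32 in nephrectomized rats 1 to 4, against -0.30, -0.25, -0.20 and 0.12 in sham rats 1 to 4. The groups overlapped through nephrectomized rat 2 and sham rat 4, and the log2 fold change was 0.45 (adjusted p = 0.161). Clock, the partner of Bmal1, gave a log2 fold change of 0.11 on its brightest probe and of 0.16 and 0.31 on its other probes, none of which passed. Nr1d1, Per3, Per2, Bmal1 and Clock were named after their values were seen.

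**Figure D3:**
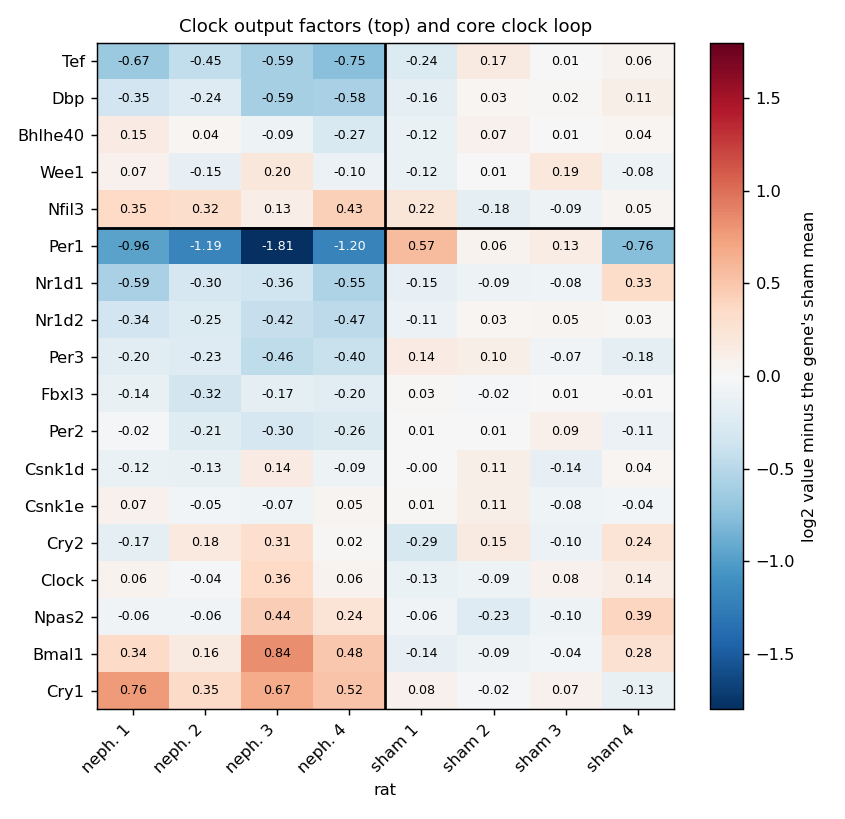
Log2 value minus the gene's sham mean for the 5 clock output factors (above the line) and 13 core clock loop genes (below it), with nephrectomized rats 1 to 4 left of sham rats 1 to 4. Tef and Dbp are negative in all 4 nephrectomized rats, Nfil3, Bmal1 and Cry1 are positive in all 4, and sham rat 4 has the low Per1 and the high Nr1d1 and Bmal1 values of its group.

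Genes reported to respond to PAR bZIP proteins, mostly in mouse liver, were read as the level below Tef and Dbp. Of 18 listed genes 11 were measured, with 0 called higher (1 at an unadjusted p under 0.05 by limma), 2 called lower and a median log2 fold change of -0.11. Over all genes, 2.57% were called higher and 1.02% lower. Por, the reductase that hands electrons to cytochromes P450, fell, with a log2 fold change of -0.41 (SE 0.08, limma adjusted p = 0.033). Its level was 2.81, 2.93, 2.99 and 2.72 in nephrectomized rats 1 to 4, against 3.29, 3.38, 3.28 and 3.13 in sham rats 1 to 4, without overlap. The other called gene was Per1, which also stands in the core loop list. Alas1, the first enzyme of haem synthesis, had the opposite sign, with a log2 fold change of 0.39 that did not pass (adjusted p = 0.0687), and its groups did not overlap. In total 10 of the 11 had a negative log2 fold change, from -1.29 for Per1 to -0.01, where the median over all genes was -0.0004. Per2 and Per3 are among the 10 and, like Per1, stand in the core loop list too. Apart from Por and the Per genes, the negative values lay between -0.14 and -0.01, with unadjusted p from 0.16 to 0.946 by limma. The count of called genes changed with single rats: it was 0 without any of sham rats 1, 2 and 3 and nephrectomized rats 1, 2 and 4, it was 1 without nephrectomized rat 3, and 4 with slide as a block.

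Genes that glucocorticoids induce were read in the same fit because Per1 belongs to both sets. Of 13 measured, 12 of them well above background on all 8 arrays, 8 were called lower and 0 higher (0 at an unadjusted p under 0.05 by limma). Over all genes, 1.02% were called lower and 2.57% higher. The median log2 fold change of the 13 was -0.66. The 3 with the smallest p were the transcription factors Klf15 and Klf9, at 0.547- and 0.712-fold of the sham level, and the metallothionein Mt2A, at 0.686-fold (adjusted p = 0.00108, 0.005 and 0.0101). Without sham rat 3 the count was 3, and it was 5 without sham rat 1, sham rat 2, nephrectomized rat 2 or nephrectomized rat 4. In those fits, 342, 666, 396, 456 and 341 of all genes were called in turn, against 714 with all 8 arrays. Corticosterone was not measured, and the part of these genes in the change of Tef was not tested.

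The genes whose profile over the 8 arrays lay nearest to that of Tef were Slc25a30, a mitochondrial carrier, Ppargc1b, a coactivator of nuclear receptors, and Gsta4, a glutathione transferase. The measure was the root mean square difference between log2 profiles, each centred on its own mean, over 9307 named genes whose probe exceeded background clearly on each of the 8 arrays. It was 0.0802, 0.0854 and 0.0986 log2 units, where Tef itself varied by 0.335 about its mean. Because the profiles include both groups, the nearest genes share its fall: their log2 fold changes were -0.50, -0.58 and -0.48 (adjusted p = 0.0275, 0.0292 and 0.0316 by limma).

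**Figure D4:**
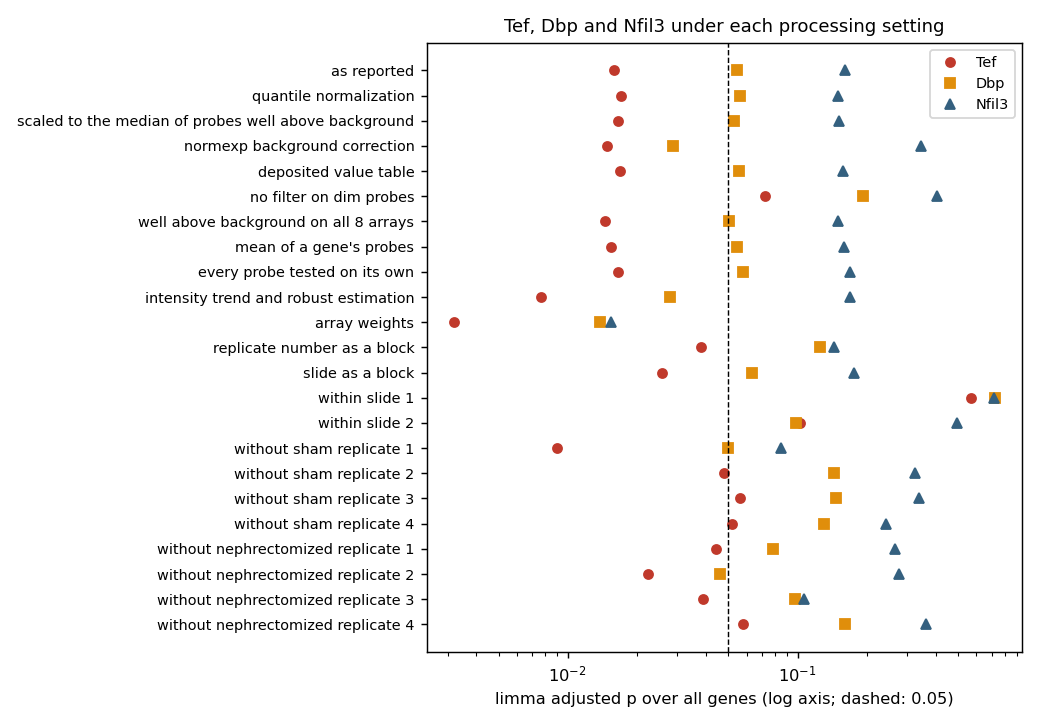
Limma adjusted p over all genes for Tef, Dbp and Nfil3 as reported and under 22 other settings, on a log axis with the threshold of 0.05 dashed. Tef lies under the threshold in 16 of the 22 settings, Dbp in 5 and Nfil3 in 1, with array weights.

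Over the 22 settings the sign of the log2 fold change was negative in 22 for Tef and in 22 for Dbp, and positive in 22 for Nfil3. Bhlhe40 was negative in 19 and positive in 3, and Wee1 positive in 16 and negative in 6, without a call in any.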

How the data were processed

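Total RNA of 8 kidneys was labelled with Cy3 and each sample hybridised to 1 array of the Agilent rat design 014879, per the labels' protocols and the file headers. The authors extracted the scans with Agilent Feature Extraction 10.5.1.1 under GE1_105_Dec08. As deposited, per the file headers, a spot's intensity is background-subtracted and detrended within its array. The authors also deposited log2 values for 30448 probes, which matched the computation here at r = 0.9999 once centred on each probe's median, and which served as an alternative. Flags of 0 or 1 per spot in the deposited files (other columns) marked outliers and spots well above background.

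Log2 intensity was averaged over a probe's spots without outliers, and each array's 75th percentile subtracted. A probe was kept where it was well above background in 4 of 4 rats of either group (23982 of 41012 probes), and the brightest probe stood for a gene (19865 genes, 70 of them with a missing value on some array, which the fit dropped). Names came from matching RefSeq accessions to a GRCr8 gene table (18713 probes). The arrays were annotated on rn4, so gene coordinates are not given, and those of the start-site windows are GRCr8. The test of nephrectomized against sham rats was limma's (version 3.58.1, R 4.3.3), two-sided and without covariates. Its p-values were adjusted by the Benjamini-Hochberg method over the 19865 genes. The p-values measure the spread between these samples. Replicate numbers did not pair the samples: same-numbered rats' deviations from their group means correlated at 0.103, 0.0112, 0.101 and -0.0176 across genes.

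The 8 factors and the lists (core clock loop, PAR bZIP targets, G2/M switch, glucocorticoid-induced genes, cell type markers) were chosen with earlier results of these data known. Named genes are all matched factors, the 3 smallest p of each list other than the cell type markers, and the 3 nearest profiles of a called factor. Others are marked as named after their values were seen, except the cell type markers, which were also named with their values known. Normexp was run on the median spot intensity. Precision is limited by having 4 arrays in each group.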

Additional observations from a re-analysis of the deposited data

Results flagged for a closer look

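In 5 of 36 groups of 4 rats examined, 1 rat lay far from the other 3, with a gap to its nearest neighbour that took a larger share of the whole range than Dixon's critical value for 4 samples. Chance gives about 1 in 20. For the Wee1 probe A_44_P409975, sham rat 4 lay low at -1.49, against -1.23 to -1.18 in the other sham rats (gap 0.839 of the range), and the same rat was lowest on the Wee1 probe A_44_P409977. For Nr1d2 sham rat 1 lay low (3.97, gap 0.842), and for Alas1 it lay low too (4.58, gap 0.863), the rat that was also lowest of its group for Tef and Dbp. For Chek1 sham rat 2 lay low (-3.97, gap 0.831), and for Mt2A nephrectomized rat 3 did (6.82, gap 0.913). The main probes of Tef, Dbp, Nfil3, Bhlhe40 and Wee1 had no such rat in either group.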

How the results depend on the processing

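The 22 settings kept the direction of Tef, Dbp and Nfil3, and no called value changed sign. The number of factors called lower (1) was 2 with normexp, with an intensity trend and robust estimation and with array weights, and 0 with dim probes kept and within slide 1 or slide 2 alone, and 0 to 2 when 1 rat was left out. The number called higher (0) was 1 with array weights and 0 without any 1 rat. All genes called (714) numbered 282 without the filter, where 35237 genes were tested, 2520 with array weights (1391 higher and 1129 lower), 0 within slide 1 (limma, 1632 at an unadjusted p under 0.05), 141 within slide 2 (137 higher and 4 lower), and 341 to 666 without 1 rat. Core clock loop genes called (3) numbered 0 without the filter and within slide 1 or slide 2, 5 with array weights, and 0 to 2 without 1 rat. PAR bZIP target genes called (2) numbered 1 with normexp, 0 without the filter and within slide 1 or slide 2, 4 with slide as a block, and 0 to 2 without 1 rat. Glucocorticoid-induced genes called (8) numbered 2 without the filter, 0 within slide 1 or slide 2, and 3 to 9 without 1 rat. G2/M switch genes called (10 of 14) numbered 7 of 10 with probes well above background on all 8 arrays, 0 within slide 1 and 9 to 10 without 1 rat. Chek1, Mastl and Bora are among the 10 and entered the fit only through the nephrectomized group, where they are high. The counts over all 14 genes are therefore given as a description. Within slide 1, where limma called 0 genes, the unadjusted p was under 0.05 for 1632 of all 19865 genes. Among these were 10 of the 14 G2/M switch genes, 11 of 13 glucocorticoid-induced genes, 4 of 13 core loop genes, 3 of 11 PAR bZIP targets and 1 of 5 factors. Within slide 2 it was under 0.05 for 2464 of all 19865 genes. Among these were 9 of 13 glucocorticoid-induced, 6 of 13 core loop and 3 of 11 target genes and 2 of 5 factors. Same-numbered rats also shared a slide, with replicates 1 and 2 of both groups on slide 1 and replicates 3 and 4 on slide 2. With the replicate number as a block, 296 genes were called. Among them were 1 factor (Tef, limma adjusted p = 0.0381), 1 core loop gene, 0 PAR bZIP targets and 2 glucocorticoid-induced genes. The causes were not tested. The setting without the filter adjusts over more genes, and the unadjusted p of Tef was also larger there (0.000756 against 0.000265 by limma) at the same log2 fold change. The fits within a slide or without a rat use fewer arrays. Tef, Dbp, Nfil3 and Bhlhe40 were each matched to 1 probe by accession, so no second matched probe bears on them. Probes without a symbol were not searched for further readings of these genes. Their probes were well above background on all 8 arrays, yet the background correction moved values: with normexp the log2 fold change of Nfil3 was 0.19, against 0.31.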
